A study of Mus musculus with 3 samples.

Results

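The miR-34 family and miR-22 are microRNAs (miRNAs) known as targets of the transcription factor p53, and they were followed here in exosomes, small membrane vesicles that cells secrete. The members were chosen by name on the array, as mmu-miR-34a-5p, mmu-miR-34b-5p, mmu-miR-34b-3p, mmu-miR-34c-5p, mmu-miR-34c-3p, mmu-miR-22-3p and mmu-miR-22-5p, and they make up 7 of the 1881 mouse miRNAs on it. The prefix mmu, for mouse, is left off below. Each of the 7 had 2 probes, so 14 probes were read in every group. miR-34a-5p, miR-34b-5p, miR-34c-5p and miR-22-3p were measured in all 3 groups. The other 3, miR-34b-3p, miR-34c-3p and miR-22-5p, were not well above background in any group. No array measured p53 or its mRNA, so "p53-induced" names what is known of these miRNAs and not a state of the cells sampled.

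The exosomes came from cultures of mesenchymal stem cells (MSCs), stromal cells that attach to the dish when marrow is plated, here from the femur and tibia of wild-type male C57BL/6 mice aged 4 to 6 weeks. H+G-Exo is the exosome preparation from MSCs kept for 24 h in hypoxia with GW4869, an inhibitor of neutral sphingomyelinase that is used to reduce exosome release. H-Exo is that from MSCs kept for 24 h in hypoxia without the inhibitor, and N-Exo is that from MSCs kept for 24 h in normoxia. All 3 groups shared mouse strain, sex, culture passage (3 to 6), a growth medium with 10% fetal bovine serum, and an ultracentrifugation of the medium of 10 dishes. The labels do not give the dose of GW4869, the oxygen level, the number of mice, or whether serum vesicles were present during the 24 h. By the design text each kind of exosome had 3 samples, whereas each group here is 1 array, and whether RNA was pooled is not said.

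p53 is a tumour suppressor that is stabilised under stress, and it binds the promoters of the miR-34a gene and of the shared miR-34b/c gene and raises their transcription. The mature miR-34 strands repress mRNAs of proteins that drive the cell cycle and protect cells from death, among them Cdk4, Cdk6, Met and Bcl2, so they act as an arm of the p53 response. miR-22 was described as a p53 target in human cells, where it represses the cell cycle inhibitor p21, and it is abundant in muscle and stromal cells. A miRNA recognises its targets mainly through its seed, bases 2 to 8 from its 5′ end. The 2 arms of a hairpin, 5p and 3p, have different seeds, and usually 1 of them is kept while the other is degraded.

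The mature sequences show what the members share and where they part. They are RefSeq's, on build GRCm38.p6, were matched by miRNA name for 6 of the 7 members, all but miR-34c-5p, and are written 5′ to 3′ with the seed in capitals.
miR-34a-5p: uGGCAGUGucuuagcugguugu
miR-34b-5p: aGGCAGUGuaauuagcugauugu
miR-34b-3p: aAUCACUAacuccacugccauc
miR-34c-3p: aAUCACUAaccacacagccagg
miR-22-3p: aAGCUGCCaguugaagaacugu
miR-22-5p: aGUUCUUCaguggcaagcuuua
miR-34a-5p and miR-34b-5p carry the same seed, GGCAGUG, and miR-34c-5p is known as a member of the same seed family. Of the 1679 mature mouse miRNAs in that table, which does not include miR-34c-5p, 4 hold this seed, the other two being miR-449a-5p and miR-449c-5p of chromosome 13. miR-34b-3p and miR-34c-3p share a second seed, AUCACUA, which no other mature miRNA in the table holds, and each arm of miR-22 has a seed of its own.

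On GRCm38.p6, miR-34a-5p lies at chr4:150068473-150068494 on the plus strand, in a gene that overlaps no other gene of the annotation. miR-34b-5p lies at chr9:51103610-51103632 and miR-34b-3p at chr9:51103574-51103595, and miR-34c-3p at chr9:51103044-51103065, all on the minus strand. The hairpins of miR-34b and miR-34c are 451 bases apart and lie within the bounds of the protein-coding genes Hoatz and Btg4. miR-22-3p lies at chr11:75463772-75463793 and miR-22-5p at chr11:75463734-75463755 on the plus strand, inside Mir22hg, the long non-coding host gene of miR-22.

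What the array measured is set by its probes, which are complementary to the 3′ part of each miRNA. The probes of the 4 measured members are shown because they decide how far the family can be told apart. They are given 5′ to 3′ as in the array files, each as the longer of its pair, and the capital is the base that the shorter probe lacks.
miR-34a-5p probe: acaaccagctaagacactgC
miR-34b-5p probe: acaatcagctaattacactgcC
miR-34c-5p probe: gcaatcagctaactacactG
miR-22-3p probe: acagttcttcaactggcaG
The longer miR-34a-5p probe pairs with bases 3 to 22 of its miRNA, that of miR-34b-5p with bases 2 to 23, and that of miR-22-3p with bases 4 to 22. The miR-34b-5p and miR-34c-5p probes differ at 2 of the 20 bases compared. The miR-34a-5p probe is 4 edits (base changes, insertions or deletions) from the miR-34b-5p probe and 5 from the miR-34c-5p probe. How much signal miR-34b-5p and miR-34c-5p lend to each other's probes was not tested, so their separate values are uncertain.

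The values below are processed intensities of single-colour arrays, from which the scanner software had subtracted the background, averaged over the 11 to 15 spots of a probe. To compare arrays, each mean was divided by the 75th percentile of the means, on that array, of all probes that were detected in every group. This divisor was 469 intensity units in H+G-Exo, 235 in H-Exo and 417 in N-Exo. The comparisons with H-Exo change with this divisor, so unscaled values stand beside scaled ones. Detection of a probe meant that the software flagged over 50% of its spots as well above background, and each miRNA is represented by its brightest probe. Each group is 1 array, so there is no test between groups, and each ± is the SD over the spots of 1 probe on 1 array, a technical error only. A miRNA is called higher or lower where both arrays detected it and the difference reached 2-fold and exceeded 2 times its standard error over spots. Levels of different miRNAs are not compared with each other, because their probes differ.

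The arrays held 675 detected miRNAs in H+G-Exo, 586 in H-Exo and 685 in N-Exo. Negative control spots averaged 0.870 ± 3.02, 0.658 ± 2.83 and -0.0343 ± 2.93 intensity units in H+G-Exo, H-Exo and N-Exo (SD over spots). Of 8 miRNAs typical of mesenchymal stromal cells, 8 were detected in H+G-Exo, 7 in H-Exo, where miR-145a-5p was not, and 8 in N-Exo. Their summed scaled level was 49.9 in H+G-Exo, 125 in H-Exo and 287 in N-Exo. Most of each sum came from miR-21a-5p (29.7, 81.0 and 190) and miR-125b-5p (15.2, 34.9 and 69.0), so it says little about the others. Of 6 blood cell markers, miR-223-3p and miR-451a were detected in all groups, with a summed list level of 0.108, 0.300 and 0.243 in H+G-Exo, H-Exo and N-Exo, while miR-142a-3p, miR-142a-5p, miR-144-3p and miR-150-5p were not detected. Of 3 muscle markers 2 were detected in H+G-Exo, 1 in H-Exo and 2 in N-Exo, with a summed level of 0.113, 0.154 and 0.159. The 2 endothelial, 5 epithelial, 2 multiciliated cell and 1 liver markers were not detected in any group.

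All 4 measured members were highest in N-Exo and lowest in H+G-Exo, before and after scaling. In RNA of a whole preparation, fewer vesicles and less of a miRNA per vesicle cannot be told apart. miR-34a-5p, the strand from the gene that stands alone, gave 34.6 ± 4.17 intensity units in H+G-Exo, 49.7 ± 3.73 in H-Exo and 109 ± 6.60 in N-Exo on its longer probe (SD over 14 or 15 spots). After scaling these were 0.0737 ± 0.00889, 0.212 ± 0.0159 and 0.260 ± 0.0158. The unscaled spots ran from 28.3 to 43.9 units in H+G-Exo, 42.9 to 54.7 in H-Exo and 97.9 to 119 in N-Exo, so H+G-Exo and H-Exo overlapped at their edges and N-Exo stood clear of both.

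On the longer probes, miR-34b-5p, from the shared miR-34b/c gene, gave 71.8 ± 7.77 intensity units in H+G-Exo, 106 ± 6.91 in H-Exo and 308 ± 27.5 in N-Exo (SD over 15 spots each). Its scaled levels were 0.153 ± 0.0166, 0.449 ± 0.0294 and 0.739 ± 0.0659. miR-34c-5p, from the same gene, gave 86.6 ± 5.47 units in H+G-Exo, 103 ± 7.47 in H-Exo and 307 ± 11.3 in N-Exo, or 0.185 ± 0.0117, 0.440 ± 0.0318 and 0.736 ± 0.0270 after scaling. For both, N-Exo lay far above the other groups without scaling. The H+G-Exo and H-Exo spots of miR-34b-5p did not overlap, with a highest H+G-Exo spot of 90.6 units and a lowest H-Exo spot of 91.0, and those of miR-34c-5p overlapped between 90.3 and 93.7.

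miR-22-3p, the guide arm of miR-22, gave on its longer probe 678 ± 39.8 intensity units in H+G-Exo, 844 ± 25.1 in H-Exo and 3742 ± 206 in N-Exo (SD over 13 to 15 spots). Its scaled levels were 1.45 ± 0.0848, 3.59 ± 0.107 and 8.97 ± 0.493. On this probe no spot of a group overlapped with another group's. On the shorter probe the H+G-Exo spots reached 113 units and the H-Exo spots began at 98.6, so these overlapped, while N-Exo stood clear. The gap between N-Exo and the other groups was wider than for the miR-34 strands.

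**Figure D1:**
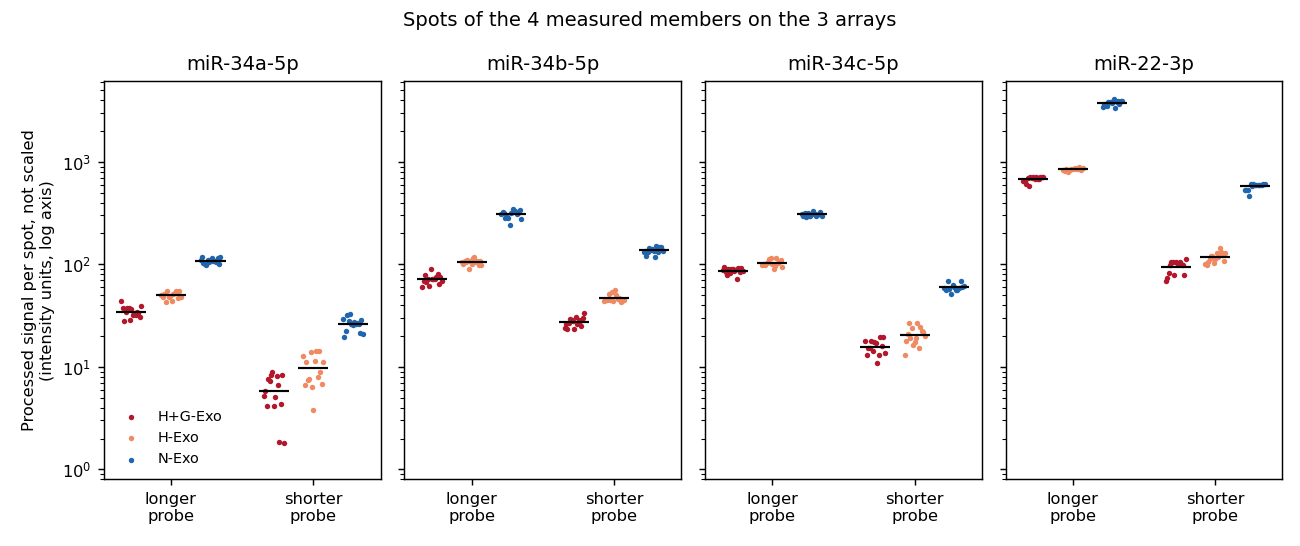
Processed signal of every spot (unscaled intensity units, log axis) on the longer and shorter probe of the 4 measured members, with H+G-Exo, H-Exo and N-Exo from left to right and a bar at each mean. On all 8 probes the N-Exo mean lies highest, for miR-22-3p at a mean of 3742 units against 678 in H+G-Exo on the longer probe.

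The shorter probes, which lack 1 base, gave the same order of groups at lower signal. For miR-34a-5p the shorter probe gave 26.2 units in N-Exo and was not detected in H+G-Exo (5.84) or H-Exo (9.66). For miR-34b-5p it gave 27.3, 46.9 and 136 units in H+G-Exo, H-Exo and N-Exo, and for miR-22-3p 94.5, 117 and 577. That of miR-34c-5p was detected in H-Exo (20.3) and N-Exo (59.6) and not in H+G-Exo, where 2 of its 14 spots were well above background (15.8).

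The 2 probes of a member are assigned to the same miRNA, and the ratio of their signals does not depend on scaling. Signal from other miRNAs on either probe was not tested. The longer probe of miR-34b-5p was brighter than the shorter by 2.63-fold in H+G-Exo, 2.25-fold in H-Exo and 2.26-fold in N-Exo. For miR-22-3p the ratios were 7.17, 7.19 and 6.49, and for miR-34c-5p 5.08 in H-Exo and 5.15 in N-Exo. No ratio is given for miR-34c-5p in H+G-Exo or for miR-34a-5p in H+G-Exo and H-Exo, where the shorter probe was not detected, and that of miR-34a-5p in N-Exo was 4.14.

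The passenger arms are the other product of the same hairpins, and none of the 3 was detected. The longer miR-34b-3p probe gave 1.40 units in H+G-Exo, 3.44 in H-Exo and 8.92 in N-Exo, with 0 spots well above background in each group. The longer miR-22-5p probe gave 4.97, 8.11 and 17.1 units in H+G-Exo, H-Exo and N-Exo, with 0, 0 and 5 of 15 spots well above background. The shorter probes gave 2.71, 0.843 and 6.03 units for miR-34b-3p in H+G-Exo, H-Exo and N-Exo, and 2.02, 6.14 and 11.2 for miR-22-5p. N-Exo was the highest on all 4 probes, while H+G-Exo and H-Exo changed places between the 2 probes of miR-34b-3p. All 4 probes lay below the lowest signal of a detected probe, which was 17.6, 15.3 and 18.8 units in H+G-Exo, H-Exo and N-Exo. No fold is given for them.

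miR-34c-3p did not show that order. Its longer probe gave 17.8 units in H+G-Exo (2 of 14 spots well above background), 5.68 in H-Exo (0 of 11) and 17.5 in N-Exo (3 of 15). The H+G-Exo and N-Exo spots overlapped and the H-Exo spots lay below both. The shorter miR-34c-3p probe, which lacks 1 base, gave 6.45, -0.0781 and 2.003 units in H+G-Exo, H-Exo and N-Exo, at or near the level of negative control spots, whose 99th percentile was 7.97, 6.94 and 7.42. Its longer probe has 14 bases, 64.3% of them G or C, and covers bases 9 to 22 of the miRNA.

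**Figure D2:**
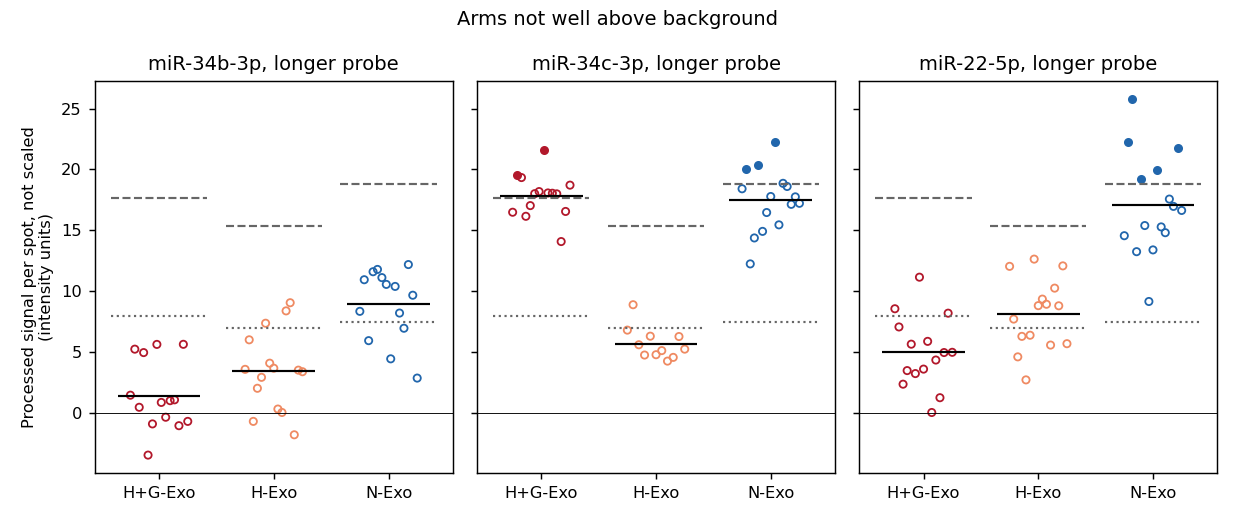
Processed signal of every spot (unscaled intensity units) on the longer probe of the 3 arms that were not detected, with filled points for spots well above background, a solid bar at each mean, a dashed line at the lowest signal of a detected probe and a dotted line at the 99th percentile of negative control spots. miR-34b-3p and miR-22-5p are highest in N-Exo (8.92 and 17.1 units), and miR-34c-3p is as high in H+G-Exo (17.8) as in N-Exo (17.5).

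H-Exo against N-Exo sets hypoxia against normoxia. With 1 array per group, hypoxia cannot be told apart from a difference between preparations. Relative to the rest of the array, all 4 members were lower in H-Exo. miR-22-3p fell 2.50-fold (log2 difference -1.32, SE 0.0237 over spots) and was the 1 member called lower, against 10.7% of the 582 miRNAs measured on both arrays called lower and 4.3% called higher. The miR-34 strands did not pass the 2-fold threshold: the log2 difference was -0.30 (SE 0.0367) for miR-34a-5p, -0.72 (SE 0.0412) for miR-34b-5p and -0.74 (SE 0.0302) for miR-34c-5p.

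Among all miRNAs measured in H-Exo and N-Exo, the median log2 difference was 0.34, against -0.73 over the 4 members. miR-22-3p had 33 of the 582 below it, miR-34c-5p 86, miR-34b-5p 93 and miR-34a-5p 121. The share of miRNAs below a member was thus 5.67% for miR-22-3p and 20.8% for miR-34a-5p, which lay nearest to the median. Without scaling the H-Exo signals were 2.18-fold (miR-34a-5p), 2.92-fold (miR-34b-5p), 2.97-fold (miR-34c-5p) and 4.43-fold (miR-22-3p) lower than in N-Exo, and all 4 then passed the rule, along with 23.0% of all miRNAs called lower and 0.172% called higher.

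H+G-Exo against H-Exo sets hypoxia with GW4869 against hypoxia alone, and here too treatment and preparation cannot be told apart. All 4 members were lower in H+G-Exo after scaling. miR-34a-5p was 2.87-fold lower in H+G-Exo (log2 difference -1.52, SE 0.0534), miR-34b-5p 2.93-fold (-1.55, SE 0.0471), miR-34c-5p 2.38-fold (-1.25, SE 0.0358) and miR-22-3p 2.49-fold (-1.31, SE 0.0249). Of the 566 miRNAs measured on both arrays, 26.1% were called lower and 6.18% higher, with a median log2 difference of -0.42 against -1.42 over the members.

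These 4 calls depend on the scaling. The divisor of H+G-Exo was 1.995 times that of H-Exo, and without any scaling the members' signals were 1.44-fold (miR-34a-5p), 1.47-fold (miR-34b-5p), 1.19-fold (miR-34c-5p) and 1.25-fold (miR-22-3p) lower in H+G-Exo, none of them past 2-fold. In that unscaled comparison 1.23% of 567 miRNAs were called lower and 32.6% higher. The direction was the same in every scaling tried, and the members stayed below the rest of the array: their median minus that of all miRNAs was -1.04 to -0.99 log2 units over the 7 scalings. The synthetic RNAs added at labelling differed by 1.10-fold between H+G-Exo and H-Exo, and those added at hybridization by 1.12-fold. Scaled by these, 0 of 4 members were called lower, against 3.0% and 3.35% of all miRNAs. The all-probe 75th percentile and the median called 2 of 4, against 17.1% and 15.5% of all miRNAs. Quantile normalization called 3 of 4, against 18.9%.

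H+G-Exo against N-Exo joins both steps, and its values are the sums of the 2 comparisons above, which share the H-Exo array. miR-22-3p was 6.20-fold lower in H+G-Exo (log2 difference -2.63, SE 0.0300), miR-34b-5p 4.82-fold (-2.27, SE 0.0522), miR-34c-5p 3.99-fold (-1.99, SE 0.0272) and miR-34a-5p 3.53-fold (-1.82, SE 0.0503). All 4 were called lower, against 26.1% of the 606 miRNAs measured on both arrays, while 18.3% were called higher. The members' median log2 difference was -2.13, and that of all miRNAs was -0.05.

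This comparison depended least on scaling, since the divisors of H+G-Exo and N-Exo differed by 1.12-fold. Over the 7 scalings the fall was 5.00-fold to 6.22-fold for miR-22-3p, 3.89-fold to 4.83-fold for miR-34b-5p, 3.21-fold to 3.99-fold for miR-34c-5p and 2.84-fold to 3.54-fold for miR-34a-5p. All 4 members were past 2-fold in each of them. Other choices ended 1 call, that of miR-34a-5p, whose signals lie nearest to background. Its log2 difference was -0.41 with normexp background correction, which adds an offset of 50 units to every spot. It was -0.91 with the mean over probes detected in at least 1 group. In that mean its shorter probe (0.0125, 0.0411 and 0.0629 scaled units in H+G-Exo, H-Exo and N-Exo) was raised to the floor for low signals in every group. It thus added no difference. The shorter probes gave 6.86-fold for miR-22-3p and, as lower bounds, at least 3.80-fold for miR-34c-5p and at least 1.67-fold for miR-34a-5p. For miR-34b-5p the shorter probe gave 5.01-fold, understated because its H+G-Exo signal lay under the floor of 0.0653 scaled units to which low signals were raised.

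The background mixes miRNAs annotated early with many annotated late. Among miRNAs with a number under 3000 in their name, a group chosen with results of these arrays known, 44.1% of 295 were called lower in H+G-Exo than in N-Exo, with a median log2 difference of -0.70. Relative to that median the log2 difference was -1.93 for miR-22-3p, -1.57 for miR-34b-5p, -1.30 for miR-34c-5p and -1.12 for miR-34a-5p. For H-Exo over N-Exo the same group had 21.8% of 285 called lower and a median of 0.10, and for H+G-Exo over H-Exo 39.1% of 274 and -0.73. Falls of 2-fold were therefore more common among the early annotated miRNAs than over the whole array.

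**Figure D3:**
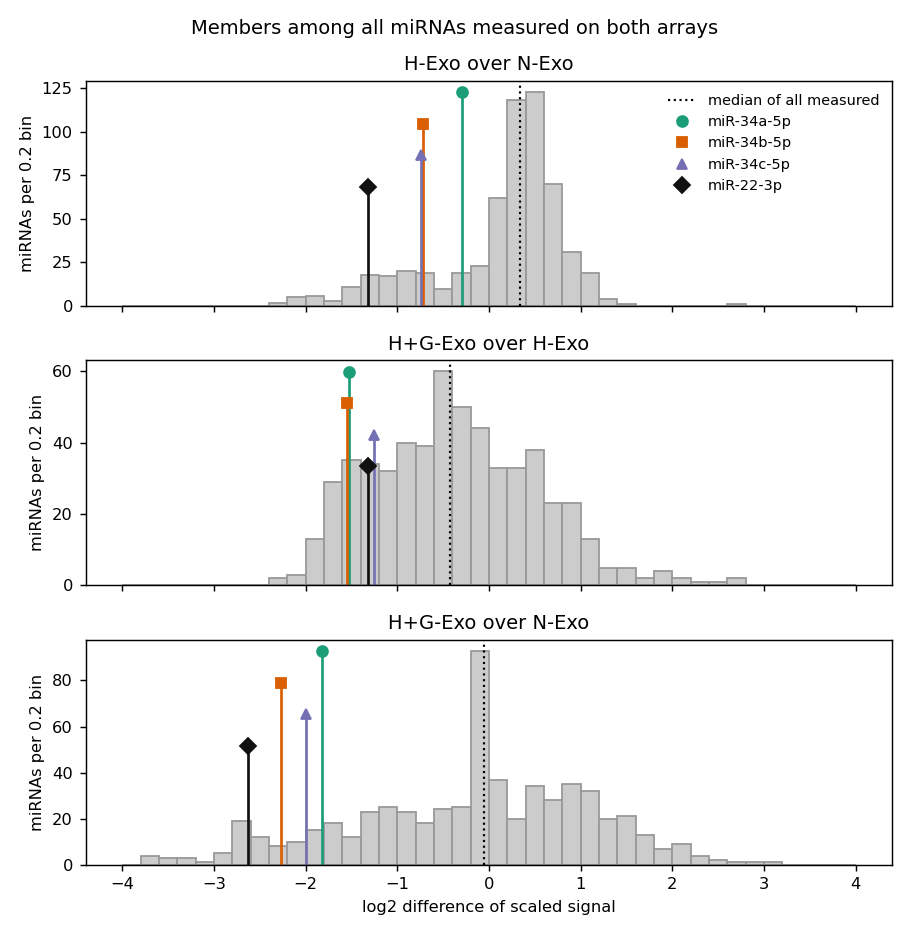
Histograms of the log2 difference of scaled signal over all miRNAs measured on both arrays (bins of 0.2, miRNAs per bin) for H-Exo over N-Exo, H+G-Exo over H-Exo and H+G-Exo over N-Exo, with the 4 members as stems, whose heights have no meaning, and the median as a dotted line. In the H+G-Exo over N-Exo panel the stems stand between -2.63 and -1.82, left of a median of -0.05.

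**Figure D4:**
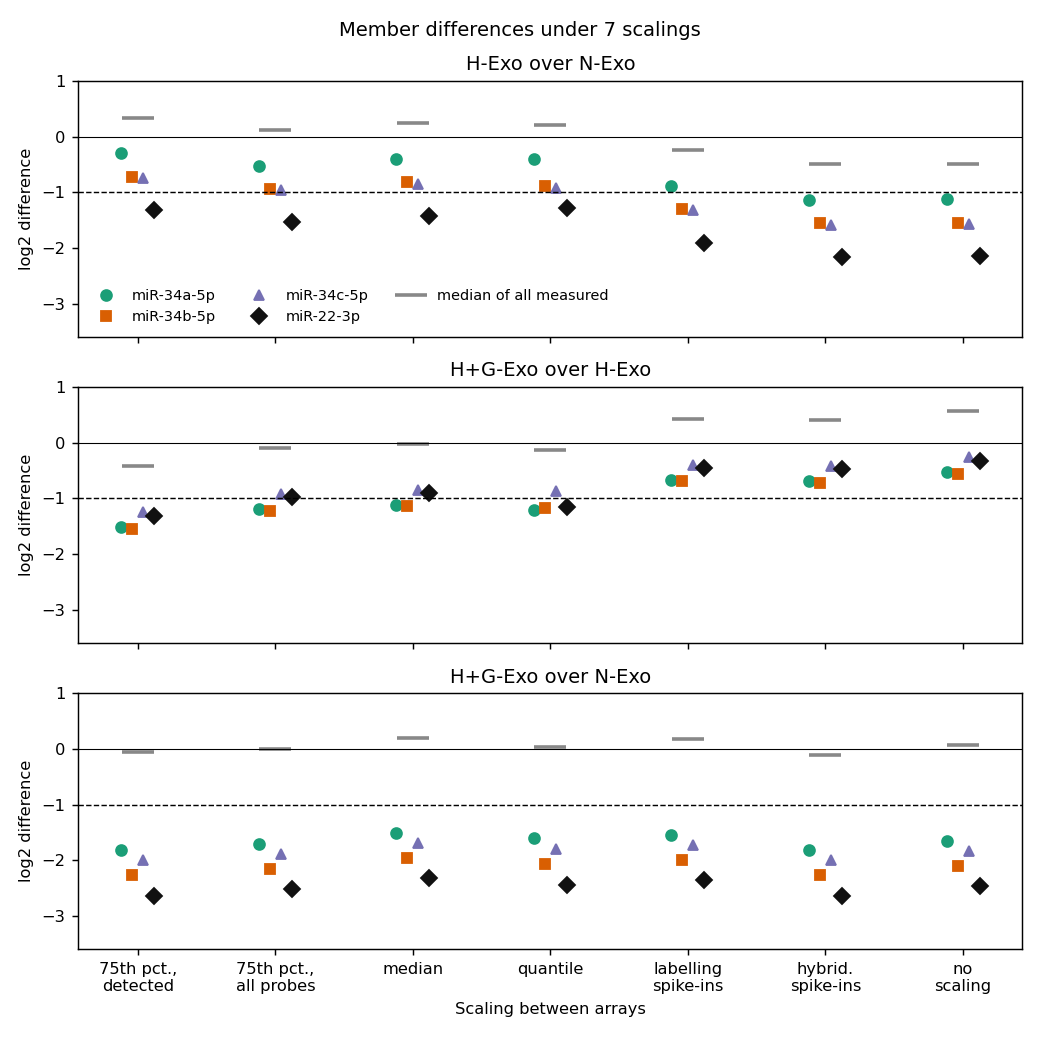
log2 difference of each measured member (markers) and the median of all measured miRNAs (grey bars) under 7 ways of scaling the arrays, with a dashed line at 2-fold lower. The members lie under the grey bar in every panel. For H+G-Exo over H-Exo all lie above the dashed line without scaling (-0.56 to -0.25). They also do so there on the labelling (-0.69 to -0.39) and hybridization (-0.71 to -0.41) spike-ins. For H+G-Exo over N-Exo they lie under the dashed line throughout.

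The members did not move in equal measure. Differences between members within a comparison do not depend on the divisor of an array, and each was set against 2 times its standard error over spots. They do depend on other steps of the processing. In H-Exo over N-Exo, miR-34b-5p and miR-34c-5p differed by 0.03 (SE 0.0511), within that error. miR-34a-5p lay 0.42 (SE 0.0552) above miR-34b-5p and 0.45 (SE 0.0476) above miR-34c-5p, and miR-22-3p lay 0.58 to 1.02 below the 3 miR-34 strands, all beyond that error. In the authors' deposited value table these strands lay closer together, at -0.73 (miR-34a-5p), -0.80 (miR-34b-5p) and -0.76 (miR-34c-5p). miR-22-3p stood at -1.18 there.

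In H+G-Exo over H-Exo the grouping was another. miR-34a-5p and miR-34b-5p, which come from different chromosomes and share a seed, differed by 0.03 (SE 0.0712), and miR-34c-5p and miR-22-3p by 0.06 (SE 0.0436), both within the error. With quantile normalization miR-34c-5p (-0.87) and miR-22-3p (-1.16) lay further apart. miR-34b-5p lay 0.30 (SE 0.0591) below miR-34c-5p, its neighbour in the same gene. With normexp, miR-34a-5p (-0.49) and miR-34b-5p (-1.04) lay apart, and miR-34b-5p was close to miR-34c-5p (-0.96). With the mean over probes, miR-34a-5p (-0.76) and miR-34b-5p (-1.58) also lay apart. In the authors' deposited value table they stayed close, at -1.28 and -1.33. In H+G-Exo over N-Exo all 6 pairs differed beyond the error, by 0.18 (SE 0.0572) for miR-34a-5p over miR-34c-5p up to 0.81 (SE 0.0586) for miR-34a-5p over miR-22-3p. In the authors' deposited value table miR-34a-5p (-2.02) lay below miR-34c-5p (-1.72) in this comparison. These errors leave out any difference between preparations, since each group is 1 array. They also leave out differences between probes of the same miRNA. In H-Exo over N-Exo the shorter and longer miR-22-3p probes gave -1.47 (SE 0.0491) and -1.32 (SE 0.0237). Those of miR-34b-5p (-0.71 and -0.72) and miR-34c-5p (-0.72 and -0.74) lay closer together.

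The miRNAs with the most similar pattern were ranked by Euclidean distance over 2 log2 differences, H-Exo over N-Exo and H+G-Exo over H-Exo, among 562 miRNAs detected on all 3 arrays. For miR-34a-5p the nearest were miR-7063-5p (distance 0.04), miR-20b-5p, miR-99b-5p, miR-20a-5p and miR-1198-5p (0.13). For miR-34b-5p they were miR-19b-3p (0.03), miR-19a-3p, miR-98-5p, miR-17-3p and let-7d-5p (0.25). For miR-34c-5p they were miR-324-5p (0.04), miR-101a-3p, miR-17-3p, miR-31-5p and miR-1839-3p (0.17), and for miR-22-3p miR-362-3p (0.02), miR-130a-3p, miR-30a-5p, miR-196b-5p and miR-140-5p (0.14).

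No member was among the 5 nearest of another. miR-34c-5p ranked 10 of 561 by distance from miR-34b-5p (0.30), and miR-34b-5p ranked 13 from miR-34c-5p. The nearest member to miR-34a-5p was miR-34b-5p at rank 24 (0.42), and the nearest to miR-22-3p was miR-34c-5p at rank 46 (0.58). The pattern rests on 3 arrays and 2 differences, which share the H-Exo array.

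The miR-449 miRNAs of multiciliated cells, among them the miR-34 seed relatives miR-449a-5p and miR-449c-5p, were not detected. All 5 on the array (miR-449a-5p, miR-449a-3p, miR-449b, miR-449c-5p and miR-449c-3p) had mean scaled levels between -0.00852 and 0.0122 over the groups.

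Other miRNAs that p53 is known to raise or to help process in human or mouse cells had the same order of groups in scaled level where they were measured. This list held miR-107-3p, the arms of miR-192, miR-194-5p, miR-215-5p, miR-145a-5p, miR-143-3p, miR-15a-5p, miR-16-5p and miR-200c-3p, 10 in all. In H+G-Exo over N-Exo 5 were measured and all 5 were called lower, with a median log2 difference of -2.62. In H-Exo over N-Exo 4 of 4 measured were called lower (median -1.23), and in H+G-Exo over H-Exo 3 of 4 (median -1.44). The last count was 0 of 4 without scaling and on the labelling and hybridization spike-ins, with medians of -0.45, -0.58 and -0.61. Of all miRNAs, 1.23%, 3.0% and 3.35% were called lower there. The other comparisons kept their counts in all 7 scalings. The main counts stand beside the 26.1%, 10.7% and 26.1% of all miRNAs called lower in H+G-Exo over N-Exo, H-Exo over N-Exo and H+G-Exo over H-Exo. Among miRNAs numbered under 3000, as these 10 are, the shares were higher, at 44.1%, 21.8% and 39.1%.

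miR-143-3p, made from a transcript shared with miR-145a-5p in stromal and smooth muscle cells, had scaled levels of 0.0850 in H+G-Exo, 0.218 in H-Exo and 0.999 in N-Exo. miR-15a-5p, a repressor of Bcl2, had 0.507, 1.69 and 4.01, and its cluster partner miR-16-5p 1.59, 2.86 and 6.63. miR-107-3p had 0.324, 0.935 and 1.99. Each of them was thus highest in N-Exo and lowest in H+G-Exo, as the members were. The H+G-Exo over H-Exo difference of miR-16-5p was -0.85, not past 2-fold, and it turned to 0.15 without scaling.

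miR-145a-5p was detected in H+G-Exo (0.0466) and N-Exo (0.262) but not in H-Exo, where it lay at least 4.01-fold below N-Exo. miR-192-5p, miR-194-5p and miR-215-5p were detected in N-Exo only, at 0.0969, 0.0509 and 0.0522, and lay at least 2.58-fold, 1.35-fold and 1.39-fold lower in H+G-Exo. miR-192-3p and miR-200c-3p were not detected in any group. miR-143-3p and miR-145a-5p also stand on the list of stromal markers. Of these, 8 of 8 were called lower in H+G-Exo over N-Exo, 6 of 7 in H-Exo over N-Exo and 4 of 7 in H+G-Exo over H-Exo. The shares called lower in these comparisons were 26.1%, 10.7% and 26.1% of all miRNAs, and 44.1%, 21.8% and 39.1% of those numbered under 3000. In H+G-Exo over H-Exo the stromal list had 0 of 7 called lower without scaling (median -0.21) and on the labelling (-0.34) and hybridization (-0.37) spike-ins. Of all miRNAs, 1.23%, 3.0% and 3.35% were called lower there. Whether the members' falls belong to the same shift was not tested.

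The miRNAs known to repress p53 itself in human cells lay in the same order of scaled level. Of the 5 listed, 3 were measured. miR-125b-5p had scaled levels of 15.2 in H+G-Exo, 34.9 in H-Exo and 69.0 in N-Exo, miR-25-3p had 1.95, 2.62 and 4.46, and miR-30d-5p had 0.400, 0.667 and 0.937. All 3 were called lower in H+G-Exo over N-Exo (median -1.23), 1 of 3 in H+G-Exo over H-Exo and 0 of 3 in H-Exo over N-Exo. Over all miRNAs measured, 26.1%, 26.1% and 10.7% were called lower in these comparisons, and among those numbered under 3000, 44.1%, 39.1% and 21.8%. In H-Exo over N-Exo 3 of 3 were called lower without scaling (median -1.60) and on the labelling (-1.35) and hybridization (-1.61) spike-ins. Of all miRNAs, 23.0%, 19.1% and 23.4% were called lower there. In H+G-Exo over N-Exo the call held for 1 of the 3 on the labelling spike-ins or the median as the scale and for 2 with quantile normalization. These settings called 20.8%, 20.3% and 22.2% of all miRNAs lower. For H+G-Exo over H-Exo 0 of 3 were called in the other 6 scalings, against 1.23% to 18.9% of all miRNAs called lower. Without scaling the H+G-Exo over H-Exo difference of miR-25-3p turned to 0.57 and that of miR-30d-5p to 0.26. miR-504-5p and miR-380-5p were not detected.

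**Figure D5:**
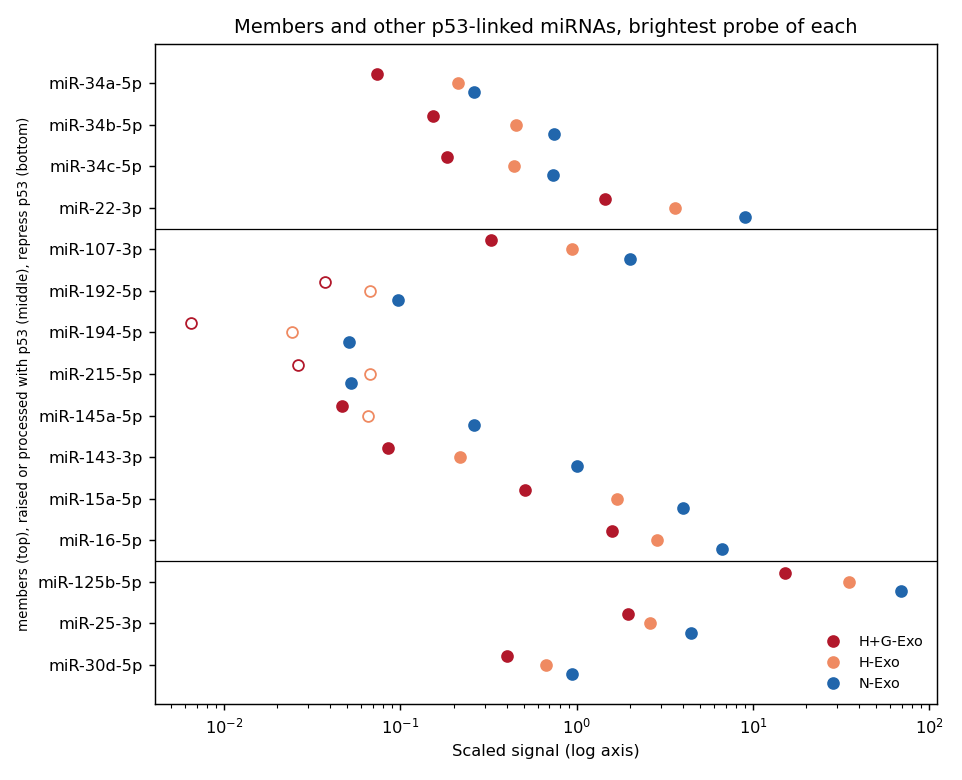
Scaled signal (log axis) of the brightest probe of each measured member (top), of other miRNAs raised or processed with p53 (middle) and of miRNAs that repress p53 (bottom), with H+G-Exo, H-Exo and N-Exo as colours and open points where the probe was not detected. Listed miRNAs detected in no group are left out. Levels can be compared along a row but not between rows, and the N-Exo point is the rightmost in every row shown but that of miR-215-5p, where H-Exo was not detected.

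Base composition of the probes moved with the differences over the whole array. Across miRNAs, Spearman's rho between the G and C share of the brightest probe and the log2 difference was 0.44 for H-Exo over N-Exo (582 miRNAs), 0.42 for H+G-Exo over H-Exo (566) and 0.49 for H+G-Exo over N-Exo (606). These miRNAs share the same arrays and are not independent. The brightest probes of miR-34a-5p, miR-34b-5p, miR-34c-5p and miR-22-3p had 50%, 40.9%, 45% and 47.4% G and C. Its part in the members' values was not tested.

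The software's own total per miRNA cannot be used for several members. For miR-34a-5p the listed total was 64.0 in H+G-Exo, 49.7 in H-Exo and 37.7 in N-Exo, the reverse of the order of its spots, while its 2 probes' own totals summed to 11.4, 16.9 and 37.7. The excess in H+G-Exo and H-Exo was the total of another miRNA, miR-3475-5p. The listed total of miR-34c-3p held that of miR-34b-5p in H+G-Exo and N-Exo (33.0 and 129, against own sums of 6.85 and 5.44). That of miR-22-5p held the total of miR-22-3p in N-Exo (1212, against an own sum of 7.89). Such a mismatch was found for 154 of 797 miRNAs that the software called detected in H+G-Exo, 148 of 702 in H-Exo and 161 of 817 in N-Exo.

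The authors' deposited value table, on a log2 scale, gave the 4 measured members in the same order of groups. miR-34a-5p stood at 2.96 in H+G-Exo, 4.24 in H-Exo and 4.98 in N-Exo, and miR-34b-5p at 4.56, 5.89 and 6.69. miR-34c-5p stood at 4.60, 5.56 and 6.32, and miR-22-3p at 7.50, 8.64 and 9.82. The authors' deposited table held miR-34b-3p at its lowest value in all groups and miR-22-5p in H+G-Exo and H-Exo. In N-Exo miR-22-5p stood above the lowest value, at 0.35. miR-34c-3p was at the lowest value in H-Exo only, and stood at 0.49 in H+G-Exo and 0.37 in N-Exo.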

How the data were processed

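miRNAs of 3 exosome preparations were measured on 1 single-colour mouse miRNA array each. The arrays sat on 1 slide and were read by the authors with Agilent Feature Extraction 10.7.1.1, per the file headers. The deposited intensity values per spot are background-subtracted and not scaled between arrays. The authors' deposited value table was read as log2 because its Pearson correlation with the log2 of the summed probes was 0.978, 0.997 and 0.972 in H+G-Exo, H-Exo and N-Exo. Its columns share mean and maximum, have medians of -3.30, -3.00 and -3.32, and no source used here names the method of their normalization. The labels' protocols name a cRNA amplification kit and a cDNA kit, so how the RNA was labelled is uncertain.

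Control spots (2164 of 58594) and spots marked as outliers (1466 in H+G-Exo, 1369 in H-Exo, 1568 in N-Exo) were left out, and 0 were saturated. Means over spots were divided by the 75th percentile over probes detected on all 3 arrays, raised to a floor of 0.0653 and put on the log2 scale (python 3.11.15, numpy 2.4.6, pandas 2.3.3). Normexp came from limma 3.58.1 in R 4.3.3. Spike-in scales are geometric means of per-probe medians. A bound sets the detected signal over the higher of the other array's own signal and its lowest detected signal. The named miRNAs were the 7 members, the 3 p53-linked lists and the 5 nearest to each measured member. The members, lists and thresholds were chosen with earlier results of these data known. Call rule and scaling were tested on simulated data with equal numbers of rises and falls. That test does not cover a lopsided shift between arrays. The number of arrays limits the precision.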

Additional observations from a re-analysis of the deposited data

How the results depend on the processing

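Every comparison rests on 1 array per group, and no replicate could be left out. No paired analysis was possible because each group was 1 array. miRNAs near background have bounds or no fold. The median log2 difference of the 4 measured members in H-Exo over N-Exo (-0.73) was -0.95 with the all-probe 75th percentile, -0.91 with quantile normalization, -1.56 without scaling, -1.31 and -1.57 on the labelling and hybridization spike-ins, -0.44 with normexp (offset 50), -0.93 with the software's total and -0.87 where 1 spot above background sufficed for detection. The members called lower there, 1 in the report, were 4 without scaling, 3 on the labelling and 4 on the hybridization spike-ins. In H+G-Exo over H-Exo the median (-1.42) was -1.08 with the all-probe 75th percentile, -1.01 with the median as the scale, -1.17 with quantile normalization, -0.42 without scaling, -0.56 and -0.58 on the labelling and hybridization spike-ins, -0.9998 with normexp, -1.07 with the mean over detected probes, -0.98 with the software's total, -1.22 with detection from 1 spot and -1.21 in the deposited table. The 4 members called lower there became 2 with the median, the all-probe 75th percentile, normexp or the mean over probes, 1 with the software's total, and 0 without scaling or on either spike-in. In H+G-Exo over N-Exo the median (-2.13) was -1.82 with the median as the scale, -1.93 with quantile normalization, -1.96 without scaling, -1.86 on the labelling spike-ins, -1.44 with normexp and -1.93 with the mean over probes. Of the 4 members called lower there, miR-34a-5p was not called with normexp or the mean over probes, and it reversed to 0.70 with the software's total, which holds another miRNA's total. In H-Exo over N-Exo, where it was not called, miR-34a-5p was 0.08 with normexp and 0.9994 with the software's total. The sum of the software's probe totals, a setting chosen after seeing the data, kept the members called. The mean over probes takes probes detected in at least 1 group. There the shorter miR-34a-5p probe lay under the floor in every group and added no difference. Those of miR-34b-5p and miR-34c-5p lay under it in H+G-Exo. For the other settings named here the cause was not tested. Over the alternatives the share of all miRNAs called lower was 7.2% to 23.4% in H-Exo over N-Exo, 1.23% to 26.1% in H+G-Exo over H-Exo and 16.1% to 27.0% in H+G-Exo over N-Exo. miR-22-3p was called lower in H-Exo over N-Exo and in H+G-Exo over N-Exo in all 13 alternatives.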
